A study of Mus musculus with 24 samples.

Results

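The 35 autophagy and lysosome genes described here were chosen by name, as core components of autophagosome formation and as abundant lysosomal proteins. Earlier results of these data were known when they were chosen. All 35 are present in the deposited table of 24421 genes, and all 35 are among the 13833 genes that passed the filter on low counts. RNA came from the medial liver lobe of C57BL/6 mice, with 6 libraries in each of 4 groups: vehicle with 0.1% ethanol at 1 h, MitoCDNB at 5 mg/kg at 1 h, the same vehicle at 4 h and the same dose of MitoCDNB at 4 h after injection. No group carries a genetic change, and the labels give neither age nor sex of the mice. MitoCDNB joins chlorodinitrobenzene, a substrate of glutathione transferases, to a lipophilic cation that draws it into mitochondria, where it depletes glutathione and inhibits thioredoxin reductase.

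In autophagy, a membrane cup grows around cytoplasm, closes into an autophagosome and fuses with a lysosome, whose acid proteases digest the content. A kinase complex around ULK1 starts the process, a lipid kinase complex marks the membrane, and a conjugation system attaches ATG8 family proteins to it, where cargo receptors bind. In the liver, autophagy supplies amino acids and lipids in fasting and removes damaged mitochondria, and much of its control is by phosphorylation and other protein changes that RNA counts do not record.

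TFEB and TFE3, which are members here, are transcription factors that bind an E-box, CACGTG, and in particular its extended form TCACGTGA, in promoters of lysosomal genes. The window from 250 bases before to 50 bases after a RefSeq start site (build GRCm38.p6) was given for 28 of the 35 genes. Some have more than 1 start site, and together they have 33 windows. TCACGTGA occurred in 3 of these 33 windows, those of Ctsd, Mcoln1 and Atg3, and in 0.974% of all 32851 windows. CACGTG, which lies within TCACGTGA, occurred in 8 of the 33 windows, each of a different gene, and in 7.15% of all windows. GTAAACA, an element bound by FOXO factors, occurred on either strand in 0 of the 33 windows and in 3.65% of all windows. This says only that these letters are not in the windows of the 28 genes. The 30 bases around the E-box are shown for the 8 genes, because they place the best known control element of this gene group beside its measured transcripts. Each is printed 5′ to 3′ on the strand of the gene with the E-box, or its extended form, in capitals.
Ctsd, chr7:142387908-142387937, minus strand: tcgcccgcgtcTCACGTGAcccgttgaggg
Mcoln1, chr8:3500462-3500491, plus strand: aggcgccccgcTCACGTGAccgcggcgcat
Atg3, chr16:45158746-45158775, plus strand: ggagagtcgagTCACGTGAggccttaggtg
Lamp1, chr8:13159088-13159117, plus strand: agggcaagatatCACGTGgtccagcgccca
Atg5, chr10:44268313-44268342, plus strand: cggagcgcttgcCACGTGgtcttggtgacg
Ctsl, chr13:64370739-64370768, minus strand: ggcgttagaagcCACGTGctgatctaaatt
Atg14, chr14:47568418-47568447, minus strand: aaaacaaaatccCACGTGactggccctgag
Atg7, chr6:114670952-114670981, plus strand: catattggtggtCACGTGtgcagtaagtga
The RefSeq start site behind the Atg7 window lies 27999 bases inside the gene as GENCODE annotates it, and that behind the Atg14 window 2215 bases inside, whereas the other 6 lie within 370 bases of the annotated 5′ end. Lamp1 held 4 copies of CACGTG in its window, and Ctsd, Mcoln1 and Atg3 held 2 each.

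Total counts ran from 25.1 M to 37.2 M per library (mean 30.3 M). All 10 hepatocyte markers were measured and together reached 47294 to 73327.5 CPM (counts relative to the TMM-scaled library size) in each library, as the tissue label has it. Vehicle replicate 1 and MitoCDNB replicate 2 of 4 h stood apart from the other libraries on the second principal component. Replicates 4 to 6 of 1 h held more brain transcripts (12.6 to 17.4 CPM summed over 12 markers) than replicates 1 to 3 (6.46 to 10.2 CPM). Values without these libraries, or within these sets, are given where they change a call.

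Levels of the members covered a wide range. On the scale of mean CPM per kilobase of exon in vehicle at 1 h, the most abundant were Lamp1, a heavily glycosylated protein of the lysosomal membrane (127), and Gabarapl1, an ATG8 family protein (126), which did not differ beyond the spread between libraries. Below them came the aspartic protease Ctsd (79.7), the cysteine protease Ctsb (63.4), Gabarap (58.6), Lamp2 (40.1) and Ctsl (40.0). The lowest were Atg10, an E2-like enzyme for ATG12 (1.36), Tfeb (1.63) and Rb1cc1, the scaffold of the initiation complex (1.64). The length used was that of all annotated exons of a gene merged, and the order depends on it. In mean CPM without this scaling, Ctsb (384) and Lamp2 (383) were above Lamp1 (340) and Gabarapl1 (253) in the same group. The coefficient of variation between the 6 libraries of a group had a median over members of 7.52% in vehicle and 6.91% in MitoCDNB at 1 h, and of 10.5% and 10.6% at 4 h. Over all genes tested the medians were 12.9%, 12.5%, 15.7% and 14.01%, in the same order, without matching on level.

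The comparison at 1 h asks what a single dose of MitoCDNB changed soon after injection. None of the 35 members passed an adjusted p of 0.05 in edgeR's quasi-likelihood test, while 6.57% of all genes tested did. At an unadjusted p under 0.05 there were 4 members, Becn1, Atg2a, Wipi1 and Gabarapl1, all with higher means in MitoCDNB, where 17.7% of all genes tested had such a p. DESeq2 and limma-voom each called 0. The members' log2 fold changes had a median of 0.03 and ran from -0.16 (Atg14) to 0.31 (Wipi1), and the median size was 0.06, against 0.12 over all genes tested. The 95% interval of the difference lay within 1.5-fold either way for 34 members and within 1.25-fold for 25. It lay within 1.5-fold for 68.5% of all genes tested. Neither the sizes nor the intervals were compared with genes matched on level. In bulk tissue, fewer cells of a type and less RNA per cell cannot be told apart.

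Nor did any member pass at 4 h, where 0.824% of all genes tested did. There were 6 members with an unadjusted p under 0.05: Atg16l1, Tfeb and Ctsl with higher means in MitoCDNB, and Ulk2, Tfe3 and Lamp1 with lower means. Of all genes tested, 14.3% had such a p. DESeq2 and limma-voom each called 0. Log2 fold changes ran from -0.23 (Tfe3) to 0.30 (Ctsl) with a median of 0.04, and the median size was 0.06, against 0.11 over all genes. Here the 95% interval lay within 1.5-fold for all 35 members and within 1.25-fold for 22. It lay within 1.5-fold for 70.7% of all genes, again without matching sizes or intervals on level. The difference between the effects at 4 h and at 1 h (the interaction) passed for 0 members and for 4.07% of all genes, with 3 members at an unadjusted p under 0.05 (Tfe3, Tfeb and Atg16l1), as 16.9% of all genes were. DESeq2 called 0 there, and limma-voom called Tfe3.

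**Figure D1:**
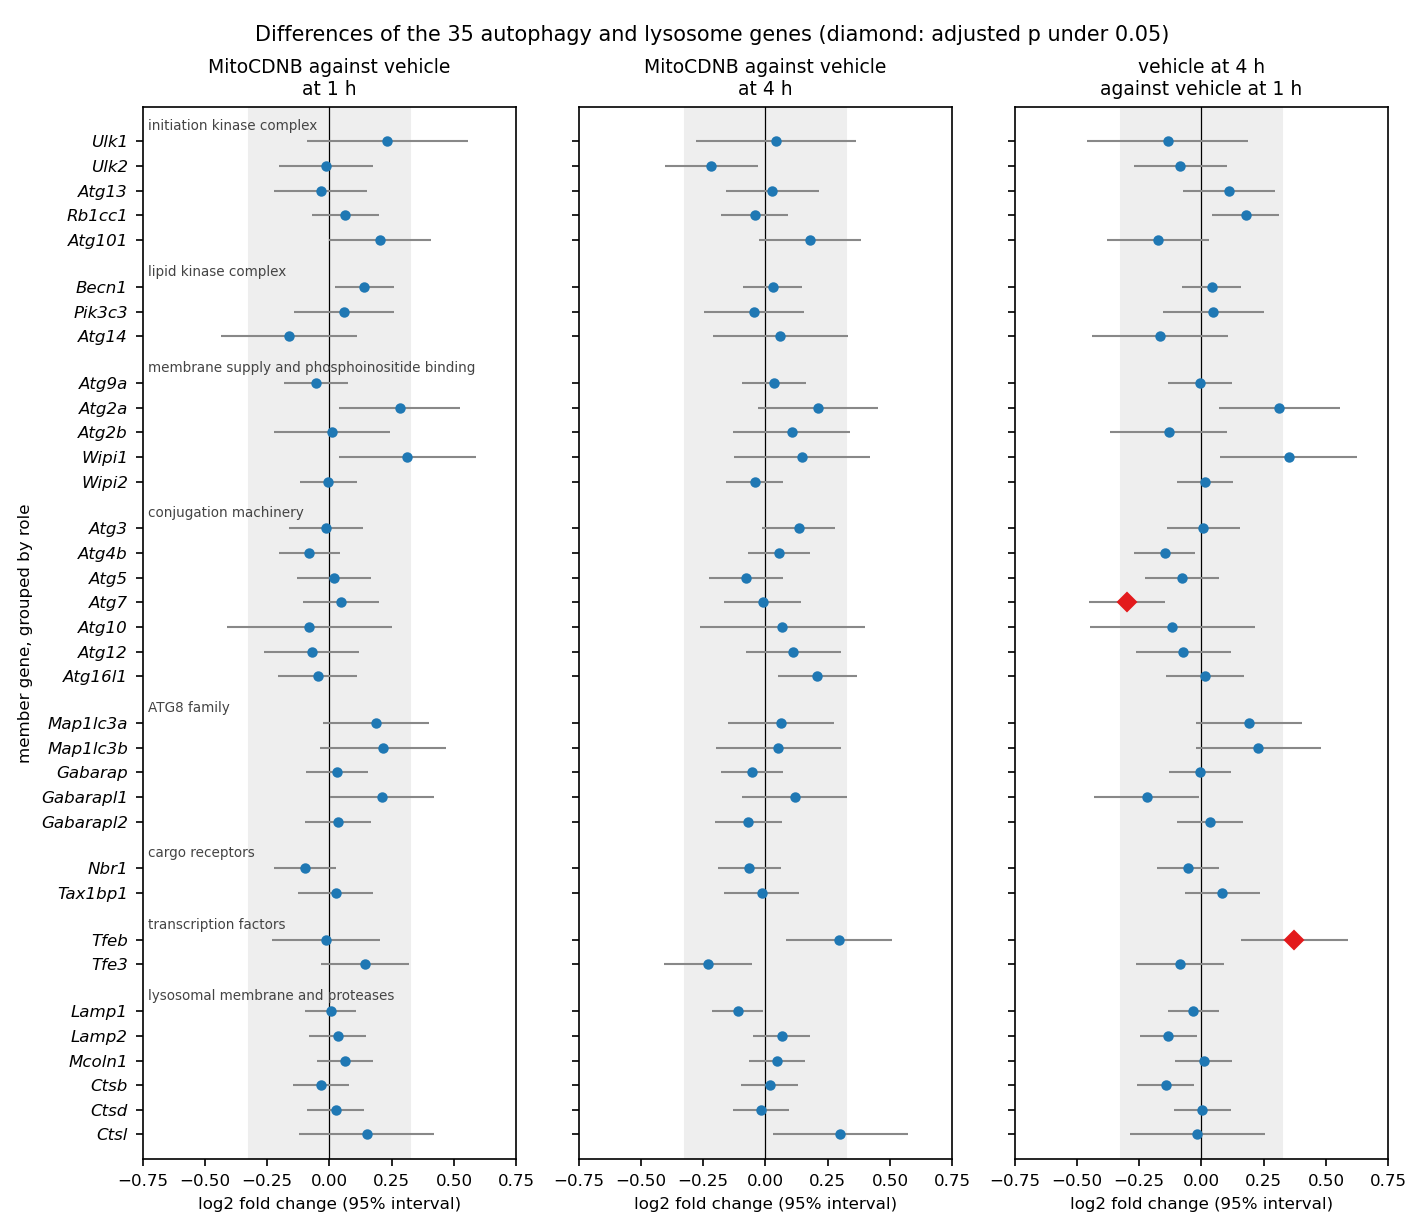
Log2 fold change (x axis) of each of the 35 members (y axis, grouped by role) in 3 comparisons, with the 95% interval of each difference as a line. The grey band marks changes under 1.25-fold, and diamonds mark an adjusted p under 0.05 in edgeR's test: none for MitoCDNB at 1 h or 4 h, and Atg7 and Tfeb for vehicle at 4 h against 1 h.

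Between the vehicle groups, 2 members differed by time: Atg7 was lower and Tfeb higher at 4 h than at 1 h. Of all genes tested, 5.44% passed in this comparison, 2.99% as higher and 2.46% as lower at 4 h. DESeq2 called 2 members and limma-voom 3, the third being Rb1cc1 (log2 0.21, adjusted p = 0.0447 with limma-voom). At an unadjusted p under 0.05 there were 9, against 19.6% of all genes tested. The 95% interval lay within 1.5-fold for 33 of the 35, against 68.1% of all genes, without matching on level. This comparison shares its vehicle libraries with the treatment comparisons, so the values are not independent of them. What separates the times other than the interval after injection, such as the time of day or feeding, is not stated in the labels. The library numbers in the labels run from 1 to 12 at 4 h and from 13 to 24 at 1 h, so time and library order cannot be told apart.

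Atg7 codes for the E1-like enzyme that activates both ATG12 and the ATG8 proteins, and lies at chr6:114643097-114860614 (GRCm38, plus strand). In vehicle it ran from 29.98 to 36.8 CPM (median 32.8) at 1 h and from 22.6 to 30.9 CPM (median 26.9) at 4 h. All 6 libraries of 4 h lay below the mean of 1 h, and the groups overlapped over a narrow range. The log2 fold change was -0.30 (SE 0.07, 95% interval -0.45 to -0.15, edgeR adjusted p = 0.0178). MitoCDNB libraries ran from 30.9 to 37.2 CPM (median 33.7) at 1 h and from 23.1 to 29.8 CPM (median 26.99) at 4 h, so they lay beside the vehicle libraries of their own time. Against vehicle the log2 fold change was 0.05 (95% interval -0.10 to 0.20) at 1 h and -0.01 (-0.16 to 0.14) at 4 h. The Atg7 call held without each of the 12 vehicle libraries in turn (adjusted p 0.00827 to 0.0472). It was lost in a fit of the vehicle libraries alone (adjusted p = 0.0644) and against only replicates 1 to 3 (log2 -0.24, adjusted p = 0.231) or only replicates 4 to 6 of 1 h (-0.35, adjusted p = 0.0560).

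Tfeb, a master regulator of lysosomal genes (chr17:47737030-47792419, plus strand), had the reverse pattern. In vehicle it ran from 8.18 to 11.6 CPM (median 8.77) at 1 h and from 8.88 to 13.98 CPM (median 12.6) at 4 h, and 5 of the 6 later libraries lay above the earlier mean. The exception was replicate 1 of 4 h, a library that stood apart. The log2 fold change was 0.37 (SE 0.10, 95% interval 0.16 to 0.59, edgeR adjusted p = 0.0356), and 0.45 (adjusted p = 0.00497) without the pair of 4 h libraries that stood apart. MitoCDNB libraries ran from 7.92 to 9.73 CPM (median 9.53) at 1 h and from 12.4 to 16.4 CPM (median 15.05) at 4 h. At 1 h these values were inside the vehicle range but for the lowest library, and the log2 fold change against vehicle was -0.01 (95% interval -0.23 to 0.20). At 4 h all 6 MitoCDNB libraries lay above the vehicle mean, the ranges overlapped, and the log2 fold change of 0.29 (0.08 to 0.51) did not pass (adjusted p = 0.165). Nor did the interaction (0.31, 95% interval 0.01 to 0.61, adjusted p = 0.287).

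Tfeb is the less firm of the 2 calls between the vehicle groups. It passed in 4 of 12 fits that each left out 1 vehicle library, with adjusted p up to 0.0889, and was lost without replicate 3, 4, 5 or 6 of either time. In the vehicle libraries alone its adjusted p was 0.0960, and against replicates 1 to 3 or 4 to 6 of 1 h the log2 fold change was 0.27 (adjusted p = 0.384) or 0.48 (adjusted p = 0.0514). Summed brain markers, which differ between those sets, ran from 8.67 to 16.1 CPM in vehicle at 1 h and from 7.21 to 11.45 CPM at 4 h, and 0 of the 7 tested passed (4 at an unadjusted p under 0.05, DESeq2 1, limma-voom 0). Their part in these 2 differences was not tested beyond the values within each set.

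Tfe3, the close relative of TFEB (chrX:7762560-7775202, plus strand), ran the other way at 4 h. Vehicle libraries ran from 15.8 to 22.6 CPM (median 18.1) at 1 h and from 15.9 to 19.5 CPM (median 17.1) at 4 h. MitoCDNB libraries ran from 17.6 to 23.3 CPM (median 20.7) at 1 h and from 13.2 to 16.8 CPM (median 15.02) at 4 h. At 4 h all 6 lay below the vehicle mean, with a small overlap of the ranges, and the log2 fold change was -0.23 (95% interval -0.41 to -0.05, adjusted p = 0.199), after 0.14 (-0.04 to 0.32, adjusted p = 0.437) at 1 h. The interaction of -0.37 (SE 0.12, 95% interval -0.62 to -0.12) had the smallest adjusted p of any member in that comparison, 0.0912, and did not pass. It passed with limma-voom, which was run with quality weights for libraries (-0.45, adjusted p = 0.0211). It also passed without vehicle replicate 1 of 1 h (-0.43, adjusted p = 0.0308).

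**Figure D2:**
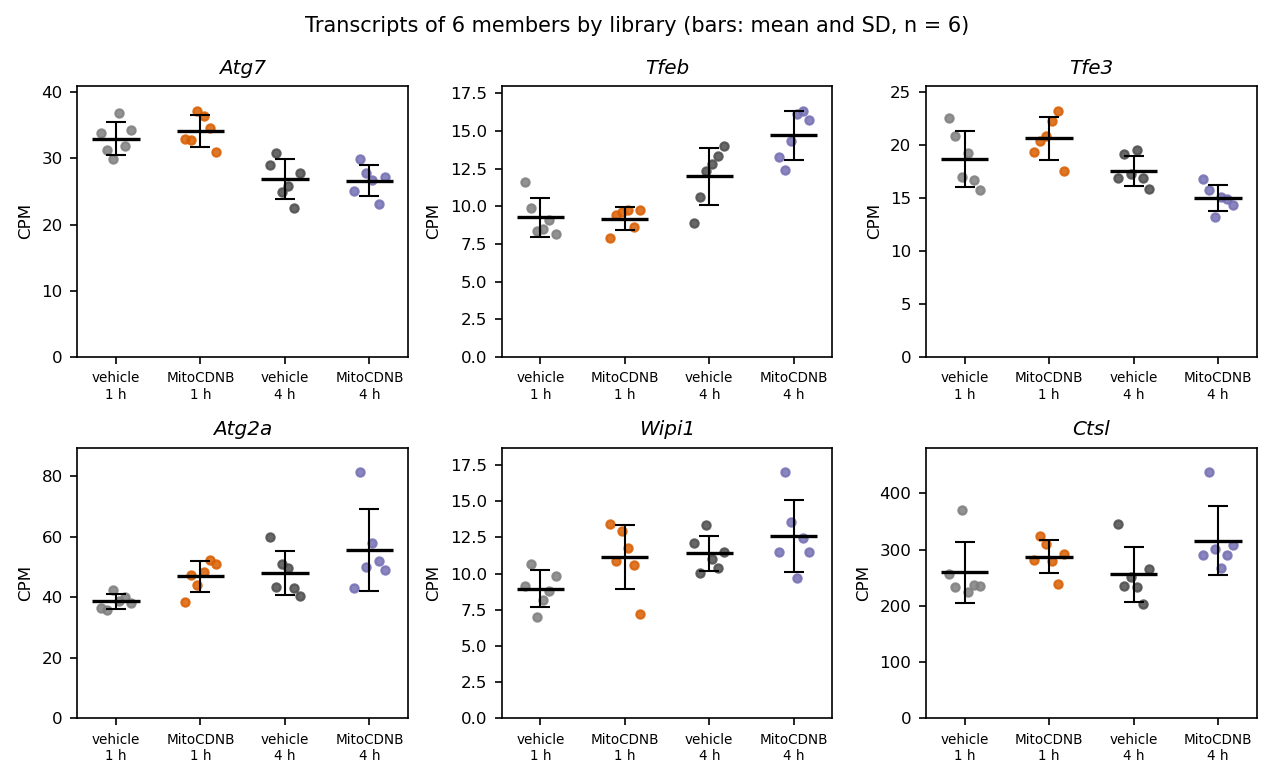
CPM (y axis, from 0) of Atg7, Tfeb, Tfe3, Atg2a, Wipi1 and Ctsl in each library (points) of the 4 groups (x axis), with the mean and SD of 6 libraries as black bars. Atg7 lies lower and Tfeb higher in both 4 h groups than in the 1 h groups, and MitoCDNB replicate 2 of 4 h is the highest library for Atg2a (81.3), Wipi1 (17.01) and Ctsl (438).

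The initiation complex holds the kinases Ulk1 and Ulk2 and the subunits Atg13, Rb1cc1 and Atg101. Atg101 came nearest to the threshold at 1 h. It ran from 15.2 to 20.4 CPM (median 16.7) in vehicle and from 17.3 to 22.2 CPM (median 19.7) in MitoCDNB, with 5 of 6 libraries above the vehicle mean (log2 0.20, 95% interval -0.001 to 0.41, adjusted p = 0.288). At 4 h it ran from 12.7 to 19.2 CPM (median 14.8) in vehicle and from 13.9 to 19.96 CPM (median 17.4) in MitoCDNB (log2 0.18, adjusted p = 0.435), so the groups overlapped at both times.

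Ulk2 was the member of this complex nearest to the threshold at 4 h. It ran from 36.1 to 57.8 CPM (median 53.4) in vehicle and from 38.2 to 53.8 CPM (median 42.5) in MitoCDNB (log2 -0.22, 95% interval -0.41 to -0.03, adjusted p = 0.263). The lowest of all 12 libraries was vehicle replicate 1, one of the pair that stood apart, and without it the difference passed (log2 -0.30, adjusted p = 0.0268). Without both libraries of that pair it did not pass (-0.26, adjusted p = 0.0643). At 1 h Ulk2 ran from 49.5 to 60.8 CPM (median 55.1) in vehicle and from 50.2 to 59.0 CPM (median 52.9) in MitoCDNB, which are nearly the same range.

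Ulk1, named here after its values were seen, ran from 94.2 to 139.5 CPM in vehicle and from 121 to 152 CPM in MitoCDNB at 1 h (log2 0.23, 95% interval -0.09 to 0.56, adjusted p = 0.502). At 4 h MitoCDNB replicate 2 held 194 CPM and the other 5 MitoCDNB libraries 85.7 to 100.4 CPM, against 85.9 to 129 CPM in vehicle, and the log2 fold change of 0.04 became -0.20 (adjusted p = 0.411) without that library. Atg13 and Rb1cc1 had log2 fold changes between -0.04 and 0.06 in both treatment comparisons.

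The lipid kinase complex joins the kinase Pik3c3 to the scaffold Becn1 and to Atg14, which directs it to autophagosome formation. Becn1 (chr11:101285952-101302286, minus strand) was the only member whose 6 libraries did not overlap at 1 h, a separation found in 4.74% of all genes tested. It ran from 40.5 to 48.2 CPM (median 46.3) in vehicle and from 48.4 to 50.9 CPM (median 50.5) in MitoCDNB, and the ranges are almost in contact. The log2 fold change was 0.14 (SE 0.06, 95% interval 0.02 to 0.26), which did not pass at an adjusted p of 0.178, the smallest of any member at 1 h. At 4 h, Becn1 ran from 42.4 to 50.6 CPM (median 47.1) in vehicle and from 42.6 to 51.3 CPM (median 48.2) in MitoCDNB (log2 0.03, 95% interval -0.09 to 0.15), and no member was free of overlap (0.896% of all genes were). Of the exon bases of Becn1, 43.9% are shared with Cntd1 on the opposite strand, and whether counting used strand is not stated in the labels, so reads of the 2 genes cannot be told apart there. Pik3c3 and Atg14 had log2 fold changes of 0.06 and -0.16 at 1 h and of -0.04 and 0.06 at 4 h.

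Membrane for the growing cup is supplied by the lipid scramblase Atg9a and the lipid transfer proteins Atg2a and Atg2b. Wipi1 and Wipi2, grouped with them here, are phosphoinositide binding proteins. Atg2a (chr19:6241668-6262335, plus strand) ran from 35.7 to 42.5 CPM (median 38.4) in vehicle and from 38.2 to 52.3 CPM (median 48.0) in MitoCDNB at 1 h. The ranges overlapped through the lowest MitoCDNB library, and the log2 fold change of 0.28 (SE 0.12, 95% interval 0.04 to 0.52) did not pass (adjusted p = 0.188). It passed in a fit of the 12 libraries of 1 h alone, and also without the pair of 4 h libraries that stood apart (both at an adjusted p of 0.0263). These left the fold change at 0.28, and the SE in the latter was 0.08. Within replicates 1 to 3 the log2 fold change was 0.18 and within replicates 4 to 6 it was 0.38, neither past the threshold.

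At 4 h Atg2a ran from 40.3 to 60.0 CPM (median 46.5) in vehicle and from 43.0 to 81.3 CPM (median 51.0) in MitoCDNB (log2 0.21, 95% interval -0.03 to 0.45, adjusted p = 0.430). The 2 highest values were those of the libraries that stood apart. Both 4 h groups had medians above that of vehicle at 1 h, and between the vehicle groups the log2 fold change was 0.31 (95% interval 0.07 to 0.55, adjusted p = 0.126).

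Wipi1, also named after its values were seen, had the highest log2 fold change of the members at 1 h, 0.31 (SE 0.13, 95% interval 0.04 to 0.59, adjusted p = 0.204). It ran from 7.01 to 10.7 CPM (median 8.98) in vehicle and from 7.20 to 13.4 CPM (median 11.3) in MitoCDNB. The lowest MitoCDNB library was replicate 6, and without it the difference passed (log2 0.41, adjusted p = 0.0427). Within replicates 1 to 3 the log2 fold change was 0.47 and within replicates 4 to 6 it was 0.14. By 4 h the value was 0.15 (95% interval -0.13 to 0.42).

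Atg9a had the smallest p of this group for the interaction (adjusted p = 0.674). Its libraries ran from 45.9 to 57.2 CPM (median 51.2) in vehicle and from 43.7 to 53.3 CPM (median 51.6) in MitoCDNB at 1 h. At 4 h they ran from 48.4 to 53.96 CPM (median 51.3) and from 48.4 to 56.7 CPM (median 52.9). The log2 fold change was -0.06 (95% interval -0.18 to 0.07) at 1 h and 0.03 (-0.09 to 0.16) at 4 h. Wipi2 had -0.004 and -0.04, and Atg2b 0.01 and 0.10, at 1 h and 4 h.

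Of the 7 genes of the conjugation machinery, 0 passed for MitoCDNB at either time, and their log2 fold changes at 1 h lay between -0.08 and 0.05. Atg4b, the protease that trims ATG8 proteins before conjugation, had the smallest p of this group at 1 h. It ran from 18.5 to 22.02 CPM (median 19.9) in vehicle and from 17.2 to 20.6 CPM (median 19.6) in MitoCDNB (log2 -0.08, 95% interval -0.20 to 0.04, adjusted p = 0.565). The 4 h libraries ran from 17.1 to 19.8 CPM (median 17.98) in vehicle and from 17.3 to 19.98 CPM (median 18.9) in MitoCDNB, again overlapping.

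Atg16l1, which places the ATG12-ATG5 conjugate on the membrane, was the nearest of this group to the threshold at 4 h. It ran from 18.8 to 24.4 CPM (median 21.3) in vehicle and from 21.1 to 27.7 CPM (median 25.8) in MitoCDNB, with 5 of 6 libraries above the vehicle mean (log2 0.21, 95% interval 0.05 to 0.37, adjusted p = 0.182). At 1 h it ran from 18.9 to 23.4 CPM (median 21.7) and from 19.1 to 23.01 CPM (median 20.7), and the log2 fold change was -0.05. The interaction was 0.26 (95% interval 0.03 to 0.48, adjusted p = 0.210). At 4 h the log2 fold change was 0.13 for the E2-like enzyme Atg3, 0.11 for Atg12, 0.07 for Atg10 and -0.08 for Atg5, each with an interval that includes 0.

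The ATG8 family proteins Map1lc3a, Map1lc3b, Gabarap, Gabarapl1 and Gabarapl2 are attached to the lipid of the growing membrane. All 5 had log2 fold changes above 0 at 1 h, from 0.03 to 0.21, and 0 passed. Gabarapl1 ran from 215 to 281 CPM (median 264) in vehicle and from 243 to 333 CPM (median 299) in MitoCDNB at 1 h (log2 0.21, 95% interval 0.00 to 0.42, adjusted p = 0.282). At 4 h it ran from 193 to 239 CPM (median 219) in vehicle and from 188 to 315 CPM (median 229.6) in MitoCDNB (log2 0.12, 95% interval -0.09 to 0.33). Its exons share 28.3% of their bases with 1700101I11Rik on the opposite strand.

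Map1lc3b, the LC3 form most used as an autophagosome marker, ran from 48.3 to 62.5 CPM (median 51.5) in vehicle and from 56.1 to 67.7 CPM (median 61.9) in MitoCDNB at 1 h. All 6 MitoCDNB libraries lay above the vehicle mean, but the log2 fold change of 0.21 (95% interval -0.04 to 0.47) had an adjusted p of 0.399. At 4 h it ran from 51.7 to 93.1 CPM (median 56.8) in vehicle and from 53.5 to 85.7 CPM (median 62.9) in MitoCDNB (log2 0.05, 95% interval -0.20 to 0.30). The highest library of each 4 h group was the one that stood apart.

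Map1lc3a ran from 17.3 to 26.6 CPM (median 23.8) in vehicle and from 22.2 to 31.7 CPM (median 25.1) in MitoCDNB at 1 h (log2 0.19, 95% interval -0.03 to 0.40). Those of 4 h ran from 21.8 to 29.6 CPM (median 26.6) and from 22.6 to 32.5 CPM (median 27.2), with a log2 fold change of 0.06. The groups overlapped at both times. Gabarap ran from 104 to 113 CPM (median 108) in vehicle and from 102 to 116 CPM (median 111) in MitoCDNB at 1 h, and from 94.2 to 126 CPM (median 107) and 97.4 to 113 CPM (median 101) at 4 h. Gabarapl2 ran from 27.7 to 30.5 CPM (median 27.99) and from 26.1 to 30.9 CPM (median 29.3) at 1 h, and from 24.4 to 31.7 CPM (median 29.9) and 24.4 to 30.3 CPM (median 28.3) at 4 h. For Gabarap and Gabarapl2 the log2 fold change lay between -0.07 and 0.03 at both times, with 95% intervals inside -0.20 to 0.17.

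**Figure D3:**
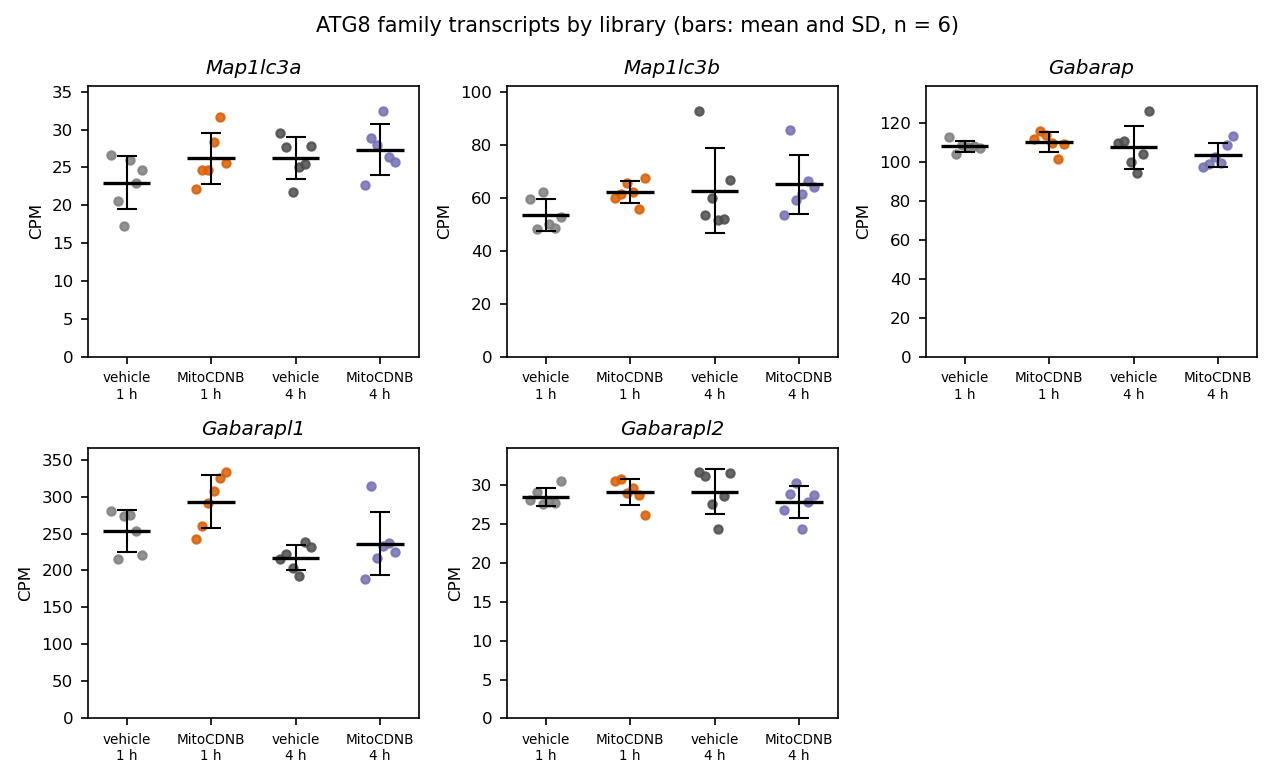
CPM (y axis, from 0) of the 5 ATG8 family genes in each library (points) of the 4 groups (x axis), with the mean and SD of 6 libraries as black bars. Gabarap and Gabarapl2 are nearly level across groups, and the groups of Map1lc3a, Map1lc3b and Gabarapl1 overlap at both times.

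The cargo receptors Nbr1 and Tax1bp1 link ubiquitin-marked proteins to ATG8 proteins. Nbr1 ran from 140.1 to 152 CPM (median 146) in vehicle and from 127 to 153 CPM (median 133) in MitoCDNB at 1 h, with 5 of 6 libraries below the vehicle mean. Its log2 fold change was -0.10 (95% interval -0.22 to 0.03, adjusted p = 0.438). At 4 h it ran from 127 to 152 CPM (median 144) in vehicle and from 126 to 148 CPM (median 129.5) in MitoCDNB (log2 -0.06, 95% interval -0.19 to 0.06). Tax1bp1 had log2 fold changes of 0.03 and -0.02 at 1 h and 4 h.

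Among the lysosomal members, Lamp1 and Lamp2 are membrane proteins, Mcoln1 is a calcium channel, and Ctsb, Ctsd and Ctsl are proteases. At 1 h, 5 of the 6 had log2 fold changes between -0.03 and 0.06, and Ctsl had 0.15. Ctsl ran from 225 to 369.6 CPM (median 236) in vehicle and from 239 to 323 CPM (median 287) in MitoCDNB at 1 h (95% interval -0.12 to 0.42, adjusted p = 0.650). At 4 h it ran from 204 to 346 CPM (median 244) in vehicle and from 267 to 438 CPM (median 296) in MitoCDNB. All 6 MitoCDNB libraries of 4 h lay above the vehicle mean, and the log2 fold change of 0.30 (SE 0.13, 95% interval 0.03 to 0.57) did not pass (adjusted p = 0.284). The highest library of each 4 h group was again the one that stood apart. Without MitoCDNB replicate 2 the log2 fold change was 0.18, and without both such libraries it was 0.29 (adjusted p = 0.197).

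Lamp1 was measured with little spread. It ran from 327 to 347 CPM (median 342) in vehicle and from 315 to 359.5 CPM (median 342) in MitoCDNB at 1 h, and from 313 to 359 CPM (median 329.8) and 289 to 323 CPM (median 308) at 4 h. All 6 MitoCDNB libraries of 4 h lay below the vehicle mean, with overlap, and the log2 fold change of -0.11 (SE 0.05, 95% interval -0.21 to -0.01) had an adjusted p of 0.294. Lamp2, Mcoln1, Ctsb and Ctsd had log2 fold changes from -0.02 to 0.06 at 4 h, with 95% intervals inside -0.13 to 0.18. Exon bases shared with a gene on the opposite strand made up 12.8% in Ctsb (with Fdft1) and 9.31% in Lamp1 (with Grtp1).

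The 8 members with an E-box in the promoter window had a median log2 fold change of 0.02 at 1 h and 0.02 at 4 h. The 20 members whose window held none had medians of 0.03 and 0.05. Between the vehicle groups, the medians were -0.02 and -0.03. The 3 genes with TCACGTGA, shown at the top of the printed sequences, had log2 fold changes of 0.00 (Ctsd), 0.01 (Mcoln1) and 0.01 (Atg3) in that comparison. Whether TFEB or TFE3 acted on any of these genes was not tested.

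**Figure D4:**
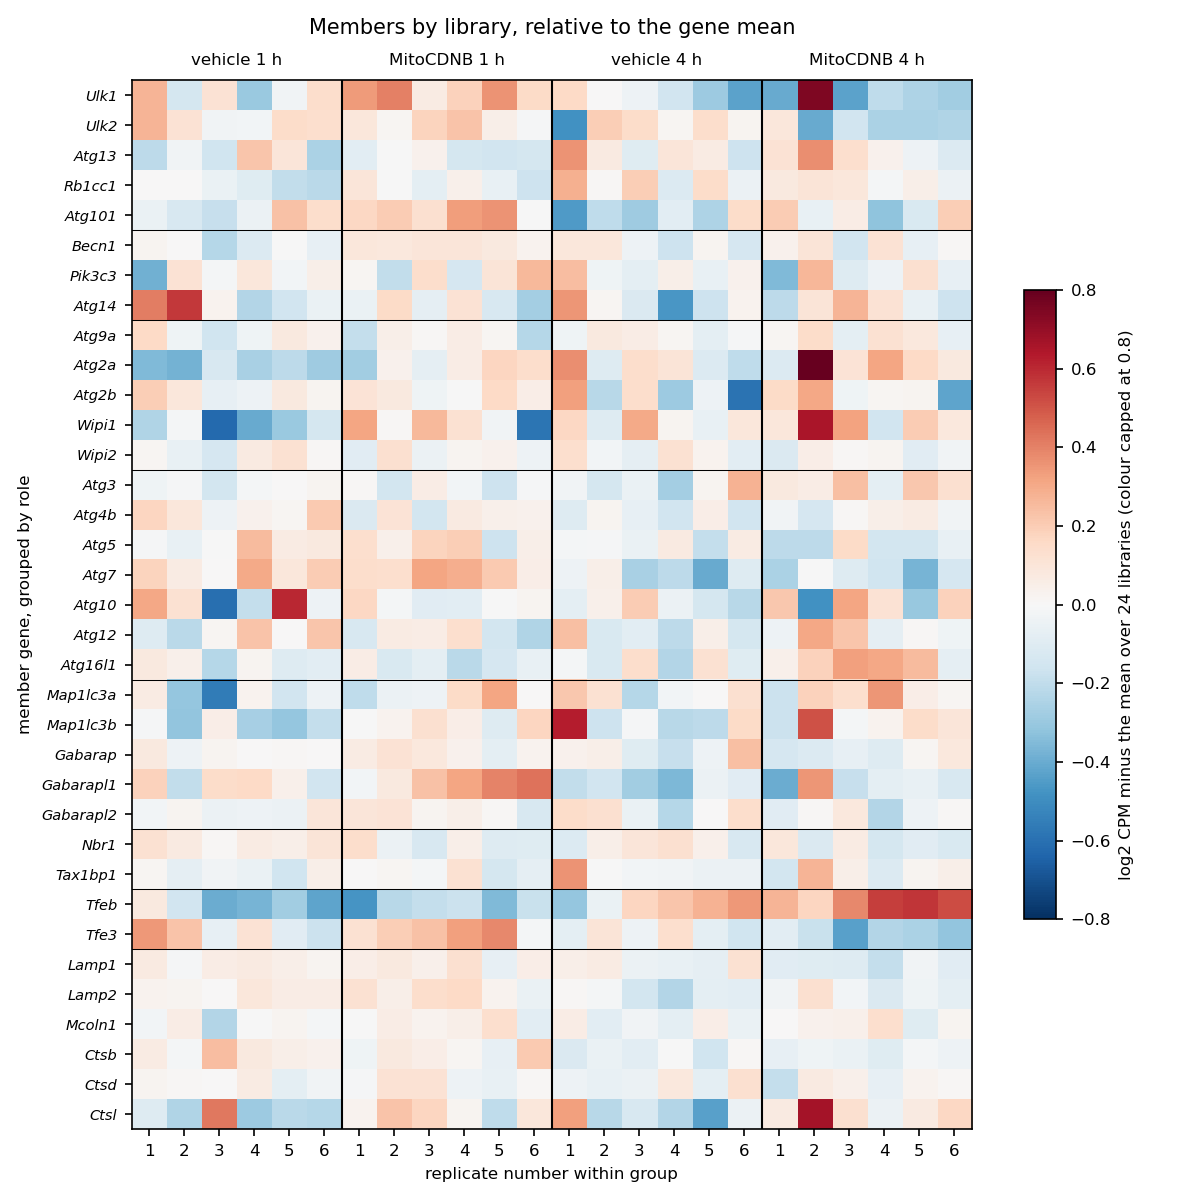
Log2 CPM of each member (rows, grouped by role) in each of the 24 libraries (columns, 4 groups of 6), as the difference from the gene's mean over all libraries, in log2 units, with colour capped at 0.8. Tfeb is highest in MitoCDNB replicates 4 to 6 of 4 h, and several genes deviate together in vehicle replicate 1 and MitoCDNB replicate 2 of 4 h, with Atg2a and Ulk1 high in the latter.

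Other genes of the pathway, which are not members, did include calls at 1 h. These other genes were listed with earlier results of these data known, so their counts cannot show whether the pathway differs from all genes. Of 32 further autophagy genes, 2 were higher and 2 lower in MitoCDNB, where 2.70% of all genes tested were higher and 3.87% lower. Trp53inp1, a p53-induced protein that binds LC3, rose from a median of 72.9 CPM (40.9 to 125) to 373 CPM (322 to 457), with no overlap (log2 2.36, SE 0.45, edgeR adjusted p = 0.00186). Nrbf2, a regulatory subunit of the Becn1 lipid kinase complex, rose from 16.96 CPM (14.3 to 19.96) to 23.1 CPM (18.6 to 31.8), with overlap (log2 0.48, adjusted p = 0.00267). Stx17, a SNARE protein that fuses autophagosomes with lysosomes, fell from 17.6 CPM (15.8 to 20.3) to 13.8 CPM (13.02 to 14.4), also with no overlap (log2 -0.37, adjusted p = 0.00126). The fourth call was Snap29, a SNARE partner of Stx17, which was lower and is named after its values were seen.

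Of 26 upstream regulators tested, 1 was higher and 3 lower at 1 h, beside 2.70% and 3.87% of all genes tested. Foxo3, a transcription factor known to induce autophagy genes, rose from 18.95 CPM (12.4 to 22.9) to 63.2 CPM (43.8 to 82.8), with no overlap (log2 1.81, SE 0.16, adjusted p = 3.96e-08). Zkscan3, known as a repressor of autophagy genes, fell from 25.3 CPM (23.7 to 27.3) to 19.2 CPM (18.6 to 22.3; log2 -0.37, adjusted p = 0.00674). Mlst8, a subunit of the mTOR complexes, fell from 6.30 CPM (5.35 to 7.75) to 5.02 CPM (4.00 to 5.26; log2 -0.42, adjusted p = 0.00759). The AMP-activated kinase subunit Prkaa1 was also lower and is likewise named after its values were seen.

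The lysosomal lists held no call at 1 h in edgeR's test. Of 16 proton pump subunits 0 passed, with 2 at an unadjusted p under 0.05. Of 35 other lysosomal hydrolases 0 passed, with 0 at an unadjusted p under 0.05, and of 22 other lysosomal membrane and cofactor proteins 0 passed, with 1. DESeq2 called 0 in each of these lists, and limma-voom called 1, 0 and 1. The median log2 fold changes were 0.04, 0.02 and 0.02.

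At 4 h, 0 genes passed in each of these 5 lists with edgeR, DESeq2 or limma-voom. At an unadjusted p under 0.05 there were 4 of the further autophagy genes, 4 proton pump subunits, 6 hydrolases, 1 membrane or cofactor protein and 3 upstream regulators, beside 14.3% of all genes tested. The medians of the groups at 4 h were 26.5 CPM in vehicle and 19.02 CPM in MitoCDNB for Trp53inp1, and 12.3 and 13.2 CPM for Foxo3. The effect of MitoCDNB was smaller at 4 h than at 1 h for Trp53inp1 (interaction log2 -2.59, adjusted p = 0.0184) and Foxo3 (-1.61, adjusted p = 7.91e-05). It also differed between the times for Vmp1, a lipid scramblase of the endoplasmic reticulum (-1.04, adjusted p = 0.0229), for Zkscan3 (0.45, adjusted p = 0.0290) and for Mlst8 (0.48, adjusted p = 0.0437). Of all genes tested, 4.07% passed for the interaction. With each library left out in turn, the interaction of Zkscan3 passed in 18 of 24 fits, with adjusted p up to 0.0601. It was lost without vehicle replicate 2 or 4 or MitoCDNB replicate 6 of 1 h, or vehicle replicate 5 or MitoCDNB replicate 1 or 3 of 4 h. That of Mlst8 passed in 9 of 24 fits, with adjusted p up to 0.0847. It was lost without vehicle replicate 1, 2, 4, 5 or 6 or MitoCDNB replicate 3, 4 or 6 of 1 h, or vehicle replicate 1, 2, 3 or 4 or MitoCDNB replicate 3, 4 or 5 of 4 h.

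Between the vehicle groups, calls outside the members, named after their values were seen, included the ATG8 protease Atg4d, higher at 4 h (18.6 to 26.8 CPM in median, log2 0.53, adjusted p = 3.04e-04). Lipa, the lysosomal acid lipase, was lower (124 to 86.4 CPM, log2 -0.49, adjusted p = 7.83e-04), as was the cargo receptor Sqstm1, also called p62 (281 to 237 CPM, log2 -0.30, adjusted p = 0.0358). The Sqstm1 call passed in 4 of 12 fits that each left out 1 vehicle library, with adjusted p up to 0.0900, and was lost without replicate 1, 3, 4, 5 or 6 of 1 h or replicate 3, 5 or 6 of 4 h. In all, 1 further autophagy gene was higher and 2 lower, 1 proton pump subunit was higher and 2 hydrolases were lower. Of the upstream regulators, 2 were higher and 3 lower. Of all genes tested, 2.99% were higher and 2.46% lower. Foxo3 was among the lower regulators (18.95 to 12.3 CPM in median, log2 -0.64, edgeR adjusted p = 0.0168). Its call held in 12 of 12 fits that each left out 1 vehicle library. No gene of the other membrane and cofactor proteins passed in edgeR (6 at an unadjusted p under 0.05, DESeq2 1, limma-voom 3). No member was free of overlap between the vehicle groups, as 2.50% of all genes tested were.

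Some markers of other cell types passed with treatment, where 6.57% of all genes tested did at 1 h and 0.824% at 4 h. At 1 h, 2 of 7 tested cholangiocyte markers (Krt23 and Spp1) were higher, with a summed level of 28.5 to 37.3 CPM in vehicle and 34.0 to 65.7 CPM in MitoCDNB. Summed neutrophil markers ran from 4.65 to 9.29 CPM and from 10.6 to 15.9 CPM, with 0 of 5 tested past the threshold (3 at an unadjusted p under 0.05, DESeq2 2, limma-voom 3, median log2 1.02). At 4 h they ran from 1.77 to 9.54 CPM in vehicle and from 1.91 to 3.82 CPM in MitoCDNB. There too 0 of 5 passed (3 at an unadjusted p under 0.05, DESeq2 1, limma-voom 0, median log2 -0.70). At 4 h, 4 of 10 endothelial markers (Clec4g, Ehd3, Kdr and Oit3) were lower, with a summed level of 289 to 323 CPM in vehicle and 256 to 290.0 CPM in MitoCDNB. Macrophage and Kupffer cell markers come from cells rich in lysosomes. At 4 h their summed level ran from 254 to 734 CPM (median 344) in vehicle and from 247 to 363 CPM (median 314) in MitoCDNB. Of these 13 markers 0 passed (5 at an unadjusted p under 0.05, DESeq2 0, limma-voom 0, median log2 -0.36). Of the other lists, 1 of 5 lymphocyte markers (Gzma) was higher at 1 h and 1 of 10 hepatocyte markers (Cps1) higher at 4 h. Of 10 stellate cell markers 0 passed at either time (0 and 5 at an unadjusted p under 0.05, DESeq2 0 and 1, limma-voom 0 and 0). Their median log2 fold change was 0.13 at 1 h and 0.27 at 4 h. Summed over these markers, the 4 h medians were 198 CPM in vehicle and 247 CPM in MitoCDNB. The part of these cell types in the members' values was not tested.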

How the data were processed

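RNA was measured in 24 libraries, 4 groups of 6, with groups and replicate numbers taken from the labels. The authors deposited 1 table of raw counts by gene symbol. Build mm10 and the tools HISAT2, Trim Galore, DESeq2 and CASAVA 1.8.4 are named in the submitters' processing notes, while counting tool, annotation and use of strand are not given in the sources consulted. Replicates are mice per the labels' protocol. Genes were filtered with filterByExpr (minimum count 10, minimum total 15), counts were scaled by TMM, and all 24 libraries were fitted with 4 groups by the robust quasi-likelihood method of edgeR 4.0.16 (R 4.3.3). Adjustment was by Benjamini-Hochberg over the 13833 genes tested, with calls at an adjusted p under 0.05. SE and 95% intervals were computed from the log2 fold change and F. The common biological coefficient of variation was 0.179. No 2 libraries of a group were duplicates (chi-square per degree of freedom 15.7 to 565 over 60 pairs). Coordinates and exon lengths are from GENCODE vM21 (GRCm38), promoter windows from RefSeq.

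All 35 members are named. Lowest, median and highest values are given for members called in any comparison, for the ATG8 family, and for the member with the smallest p of each role in each treatment comparison. Of the other pathway lists, up to 3 called genes with the smallest p are named per list and treatment comparison. Members and lists were chosen with earlier results of these data known. Alternatives were other scalings, filters, thresholds and tools (DESeq2 1.42.0, limma 3.58.1), fits of the compared groups alone, a replicate block, sets of the 1 h libraries, and leaving out libraries. The limma-voom fits also weighted each library by its quality, so they differ from edgeR in more than the tool.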

Additional observations from a re-analysis of the deposited data

Results flagged for a closer look

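In 13 of 140 sets of 6 libraries (35 members in 4 groups), the highest or lowest library lay far from the other 5 for the range of that group, by Dixon's criterion. Chance gives about 1 in 20 sets if they are independent, but members measured in the same libraries are not. The rate over all genes tested was not computed, so the count is not a result about the members. At 4 h, vehicle replicate 1 held the highest Pik3c3 (14.1 CPM), Map1lc3b (93.1 CPM) and Tax1bp1 (104 CPM) and the lowest Ulk2 (36.1 CPM) of its group. MitoCDNB replicate 2 of 4 h held the highest Ulk1 (194 CPM), Lamp2 (406 CPM) and Ctsl (438 CPM). These are the 2 libraries that stood apart over all genes.

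At 1 h, vehicle replicate 3 held the highest Ctsb (431 CPM) and Ctsl (369.6 CPM) and the lowest Mcoln1 (18.8 CPM) and Atg3 (39.2 CPM) of its group. Vehicle replicate 1 held the lowest Pik3c3 (9.10 CPM), and MitoCDNB replicate 6 the lowest Becn1 (48.4 CPM), which was still above every vehicle library of that time.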

How the results depend on the processing

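Of 3990 values of single members under alternatives, 3966 stayed on their side of the threshold, 8 passed it and 16 lost it, and no called value changed sign. Only Atg7 and Tfeb, between the vehicle groups, were called in the main fit, and all 16 losses were theirs. All other values started uncalled and had no call to lose, so the total says little about how firm the calls are. Members called at 1 h were 1 instead of 0 (Atg2a) in the fit of the compared groups only and without the pair of 4 h libraries that stood apart, and 0 to 1 when each library was left out in turn. At 4 h they were 0 to 1 (Ulk2, without vehicle replicate 1). For the interaction they were 1 (Tfe3) at an adjusted p under 0.10 and with limma-voom, and 0 to 1 when libraries were left out. Between the vehicle groups they were 0 at an adjusted p under 0.01, in the compared groups only, and with only replicates 1 to 3 or 4 to 6 of 1 h, and 1 to 2 when libraries were left out. A term for the 1 h set was not run there, since 4 h has no such sets.

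Counts over all genes moved by over 1.5 times in several settings. At 4 h, 114 calls became 348 with DESeq2, 224 with limma-voom, 18 in the compared groups only, 247 without the pair of libraries and 63 to 412 when each library was left out. Between the vehicle groups, 753 became 415 in the compared groups only and 480 to 749 with a library left out. With only replicates 1 to 3 or 4 to 6 of 1 h, counts were 244 and 256 at 1 h, 150 and 275 for the interaction, and 177 and 309 between the vehicle groups. For the interaction, limma-voom gave 913 against 563. At an adjusted p under 0.01 there were 473 calls at 1 h, 19 at 4 h, 231 for the interaction and 255 between the vehicle groups. Under 0.10 there were 308 at 4 h and 1274 between the vehicle groups.

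With the replicate number as a replicate block, 835, 84 and 504 genes were called at 1 h, at 4 h and for the interaction, against 909, 114 and 563 without it, with 0 members in each. Deviations of same-numbered libraries had correlations of both signs, from -0.07 to 0.21 at 1 h and from -0.21 to 0.26 at 4 h. Most MitoCDNB libraries correlated best with a vehicle library of another number. Atg10, the least abundant member (mean 2.33 CPM in vehicle and 2.21 CPM in MitoCDNB at 1 h), had a 95% interval of -0.41 to 0.25 at 1 h. How much of its width comes from depth was not tested.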
